A study of Mus musculus with 4 samples.

Results

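The genes described here encode the core of the microRNA pathway: Drosha, Dgcr8, Xpo5, Dicer1, the Argonautes Ago1, Ago2 and Ago4, and the silencing scaffolds Tnrc6a, Tnrc6b and Tnrc6c. These 10 genes were listed by name, and a gene was measured where a probe set of the array carried its symbol alone, which held for 8 of the 10 among the 22180 genes tested. The samples were Beta-TC-6 cells, a mouse line of pancreatic beta cells grown in medium with 25 mM glucose and 15% serum. They were transfected, with the same lipid reagent, either with a mixture of 3 RNA duplexes against NF90 (siNF90, 2 arrays) or with a negative control siRNA (siNTC, 2 arrays), and total RNA was read on Affymetrix Mouse Gene 2.1 ST arrays. Nothing in the labels ties the 2 arrays of either group to cultures grown apart, so the p-values given here rest on array-to-array spread that could be purely technical. No level of NF90 itself is given, and the groups are named as the labels name them.

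MicroRNAs are cut out of longer transcripts in steps. In the nucleus the Microprocessor, made of the RNase Drosha and its double-stranded RNA-binding partner Dgcr8, releases a hairpin, which Exportin-5 (Xpo5) carries to the cytoplasm and Dicer (Dicer1) trims to a short duplex. An Argonaute protein keeps 1 strand as a guide to messenger RNAs, and TNRC6 proteins bound to the Argonaute recruit the enzymes that shorten the poly(A) tail. NF90 is itself a double-stranded RNA-binding protein, known from other cells to bind some microRNA precursors and to hinder their cutting by the Microprocessor.

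Values are log2 signals of a probe set, and every difference is siNF90 minus siNTC on that scale. Of the beta cell markers 9 of 10 lay at or above the median level of all genes (1.84), and Iapp, which encodes the islet amyloid polypeptide, read 10.27 and 10.33 on the siNF90 arrays and 10.58 and 10.35 on the siNTC arrays. Ucn3, a marker of mature beta cells, did not. The beta cell marker with the largest difference was Slc2a2, the glucose transporter GLUT2, at 4.78 and 4.86 in siNF90 and 6.0 and 5.80 in siNTC (-1.08 ± 0.13, log2 difference and SE; limma adjusted p = 0.342, and 0.0153 with the trend option described below), while Nkx6-1 (0.45 ± 0.12) and Mafa (0.38 ± 0.15), beta cell transcription factors, had higher values in siNF90. All 4 markers of other islet endocrine cells also reached the median level, among them Gcg, the glucagon gene, at 8.88 and 8.78 in siNF90 and 8.50 and 8.75 in siNTC, and Sst, the somatostatin gene, at 6.72 and 6.54 in siNF90 and 6.86 in both siNTC arrays. The others lay little above that level, Ppy with means of 2.33 in siNF90 and 2.52 in siNTC and Ghrl with 2.24 and 2.22. Of the markers of exocrine and duct cells, 1 of 5 reached that level (Krt7), and of those of stroma, endothelium and blood, 1 of 8 (Cd68, at 4.44 and 4.48 in siNF90 and 3.32 and 3.35 in siNTC). Cd68 differed by 1.13 ± 0.12 (log2 difference and SE; limma adjusted p = 0.342, and 0.0217 with the trend option). The markers of stroma, endothelium and blood spanned 0.81 to 4.48 on the siNF90 arrays and 0.92 to 3.35 on the siNTC arrays. Both upper ends were Cd68. The others of this list lay below the median level and differed by -0.37 (Cdh5) to 0.29 (Col1a1). Among them were the blood cell markers Ptprc (-0.02 ± 0.17) and Lyz2 (0.11 ± 0.19). The part of any of these markers in the differences below was not tested. Across genes, which do not count as replicates, the 2 arrays of each group correlated at r = 0.9919 in siNF90 and 0.9927 in siNTC.

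The differences of the 8 measured genes lay between -0.28 for Ago1 and 0.39 for Tnrc6c. No gene of the 8 passed limma's test over all genes, with adjusted p between 0.44 and 0.944, and 5 had a difference below 0, as 45.8% of all genes did, and 3 above it. The median difference over the 8 genes was -0.08, beside 0.02 over all genes. Over all genes, limma called 0% of 22180 at an adjusted p under 0.05, and 10.3% had an unadjusted p under 0.05. Of the 8 genes only Tnrc6c had such a p. In 6 of the 8 the arrays of the groups did not overlap, 3 higher and 3 lower in siNF90. Groups did not overlap in 39.8% of all genes (21.9% higher and 17.9% lower in siNF90), and in 53.7% of the 6637 genes with a mean level of at least 4, a level that 7 of the 8 reach and that was chosen after the values were seen. All 8 lay at or above the median level, so no filter removed any of them.

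**Figure D1:**
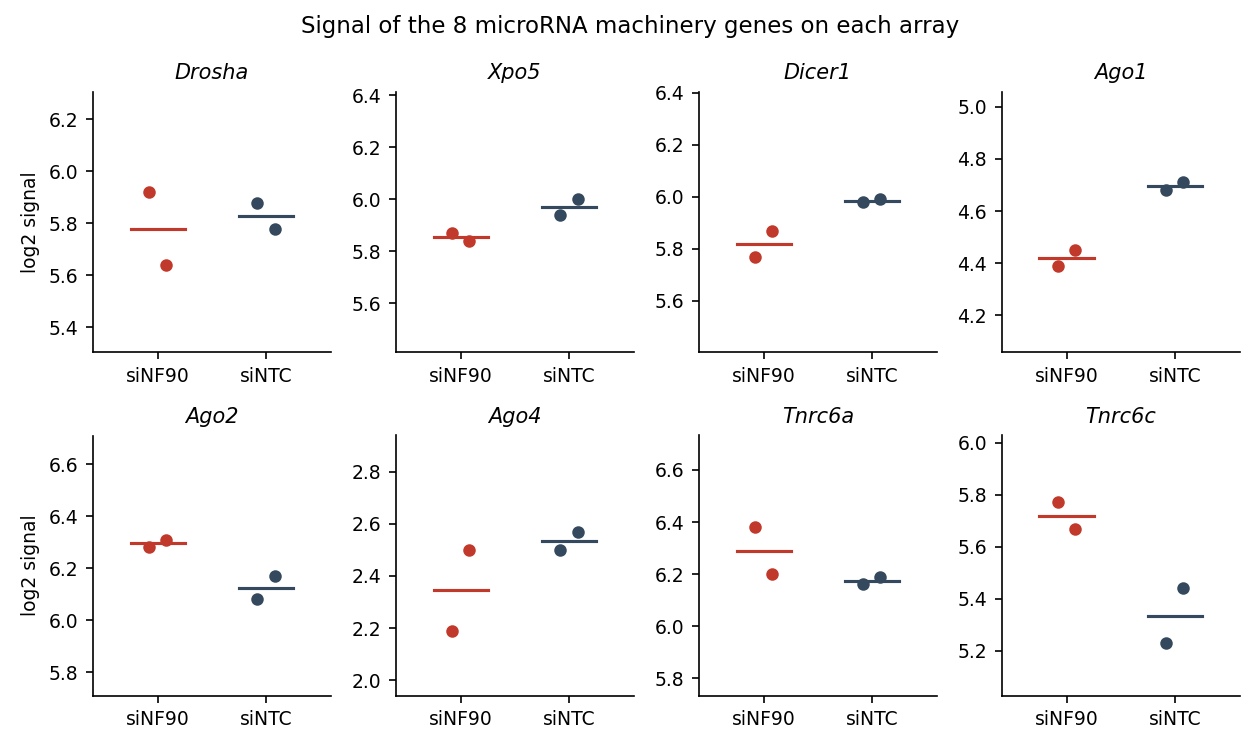
Log2 signal of the 8 measured genes on each array, siNF90 in red and siNTC in dark blue. Points are arrays, lines are means of 2 arrays, and each panel spans 1 log2 unit. The groups overlap for Drosha and Ago4 and are apart for the other 6, by most for Ago1 and Tnrc6c.

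Of the Microprocessor, Drosha, the RNase that makes the first cut, was measured by a probe set of its own. Drosha read 5.92 and 5.64 on the siNF90 arrays, against 5.88 and 5.78 on the siNTC arrays. The siNTC values lay between the siNF90 values, and the difference was -0.05 ± 0.14 (SE; limma adjusted p = 0.944) with a 95% interval of -0.40 to 0.30. In bulk RNA such a value cannot tell less RNA per cell from fewer cells that express the gene.

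Dgcr8 had no probe set of its own. Its symbol stands on probe set 17328897 together with that of Mir1306, a microRNA gene that lies within the span of Dgcr8 in RefSeq, so no value is assigned to either gene. The sequence of this hairpin is shown because the Microprocessor is known to cut hairpins in Dgcr8 messenger RNA, and through them to limit the amount of its own partner. It lies on the minus strand of chr16:18284239-18284317 (RefSeq, GRCm38.p6), and the capitals mark its mature arms, mmu-miR-1306-5p first and mmu-miR-1306-3p second.
Mir1306 hairpin: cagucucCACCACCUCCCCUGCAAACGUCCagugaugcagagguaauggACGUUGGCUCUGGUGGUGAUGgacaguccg
The shared probe set read 4.93 and 4.87 on the siNF90 arrays and 5.02 and 5.21 on the siNTC arrays. Both siNF90 values were the lower ones, with a difference of -0.22 ± 0.14 (SE; limma adjusted p = 0.729 over all probe sets).

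The genes of export and dicing both had slightly lower values in siNF90, and neither passed the test. Xpo5, which carries precursor hairpins out of the nucleus together with the GTPase Ran, read 5.87 and 5.84 on the siNF90 arrays, against 5.94 and 6.0 on the siNTC arrays. Its difference was -0.12 ± 0.12 (SE; limma adjusted p = 0.788), a signal 1.08-fold higher in siNTC. Dicer1, whose product removes the loop of the hairpin, read 5.77 and 5.87 in siNF90 and 5.98 and 5.99 in siNTC. Its difference was -0.17 ± 0.12 (adjusted p = 0.692), or 1.12-fold. For both genes each siNF90 array lay below each siNTC array. Groups were apart in either direction in 39.8% of all genes, and in 53.7% of those with a mean level of at least 4. The 95% intervals, -0.40 to 0.17 for Xpo5 and -0.46 to 0.13 for Dicer1, include 0.

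None of the Argonautes passed the test, and their differences had both signs. Ago2, the only mammalian Argonaute that is an efficient RNA slicer, had higher values in siNF90, at 6.28 and 6.31 against 6.08 and 6.17 in siNTC. Ago1 had lower values in siNF90, at 4.39 and 4.45 against 4.68 and 4.71 in siNTC. The groups were apart for both genes, in opposite directions, with differences of 0.17 ± 0.12 for Ago2 (SE; limma adjusted p = 0.682) and -0.28 ± 0.12 for Ago1 (adjusted p = 0.502). Ago1 averaged 4.42 ± 0.04 in siNF90 and 4.70 ± 0.02 in siNTC (SD, n = 2 each), 1.21-fold higher in siNTC. Ago4 read 2.19 and 2.50 in siNF90 and 2.50 and 2.57 in siNTC. The groups met at 2.50, the difference was -0.19 ± 0.15 (adjusted p = 0.717), and it came to -0.04 without the first siNF90 array. Ago3, the remaining mouse Argonaute and not among the 10 genes, read 6.22 and 6.02 in siNF90 against 6.42 and 6.41 in siNTC, a difference of -0.30 ± 0.13 (adjusted p = 0.509) in the direction of Ago1.

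**Figure D2:**
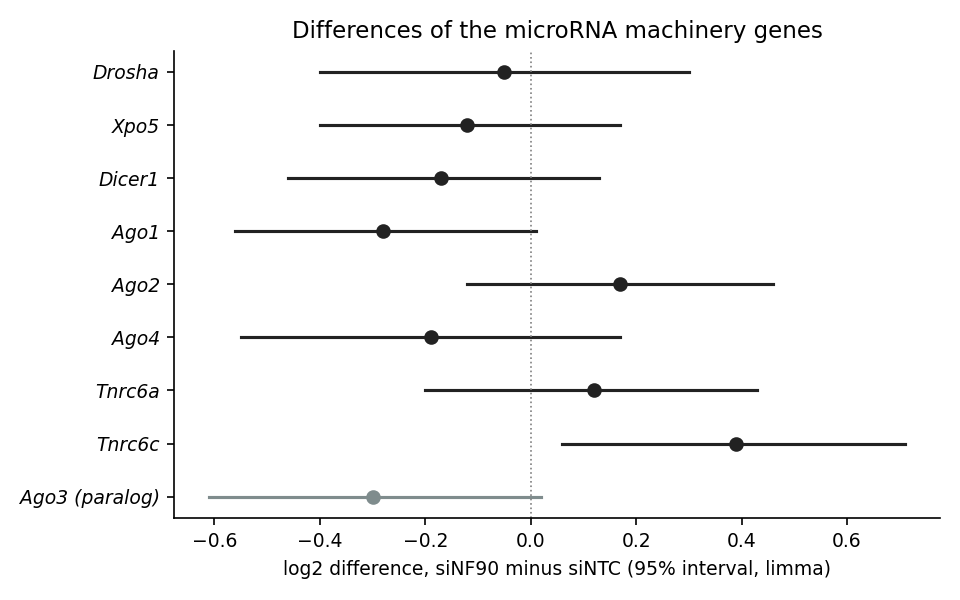
Log2 difference, siNF90 minus siNTC, of the 8 measured genes and of Ago3 (grey), with 95% intervals from limma that are not adjusted for the number of genes. The interval of Tnrc6c, 0.06 to 0.71, is the one that leaves out 0, and that of Ago1 ends at 0.01.

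Ratios of paralogs within an array do not depend on a scale factor of the whole array, and only their difference between groups has a meaning here, since probe sets differ in brightness. Each ratio has the gene with the higher difference on top, so its sign is fixed by that choice. The log2 ratio of Ago2 to Ago1 was 1.89 and 1.86 on the siNF90 arrays and 1.40 and 1.46 on the siNTC arrays. It differed by 0.45, a 1.36-fold shift toward Ago2 in siNF90, with a gap of 0.40 between the groups. The ratio of Ago2 to Ago3 differed by 0.47, at 0.06 and 0.29 in siNF90 and -0.34 and -0.24 in siNTC. That of Ago2 to Ago4 differed by 0.36, at 4.09 and 3.81 against 3.58 and 3.60 in siNTC. The ratios among Ago1, Ago3 and Ago4 overlapped between groups and differed by 0.02 to 0.11. Groups did not overlap in 4 of the 7 paralog pairs compared, beside 39.8% of all single genes. The share over other pairs of genes was not computed. These 4 were the pairs with Ago2, which share its values and are not separate results, and the pair of Tnrc6c and Tnrc6a. Ago2 read higher on both siNF90 arrays, where no other Argonaute exceeded its own lowest siNTC value. The ratios with Ago2 therefore had to lie apart, and they add nothing to the differences of the single genes. The pairs were chosen after values were seen. A two-sided exact permutation test of 2 arrays against 2 gave p = 0.333 for each of these 4 (0.583 after Benjamini-Hochberg adjustment over the 7 pairs), the smallest this test can give with 2 arrays a group, so it cannot reach a threshold of 0.05.

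**Figure D3:**
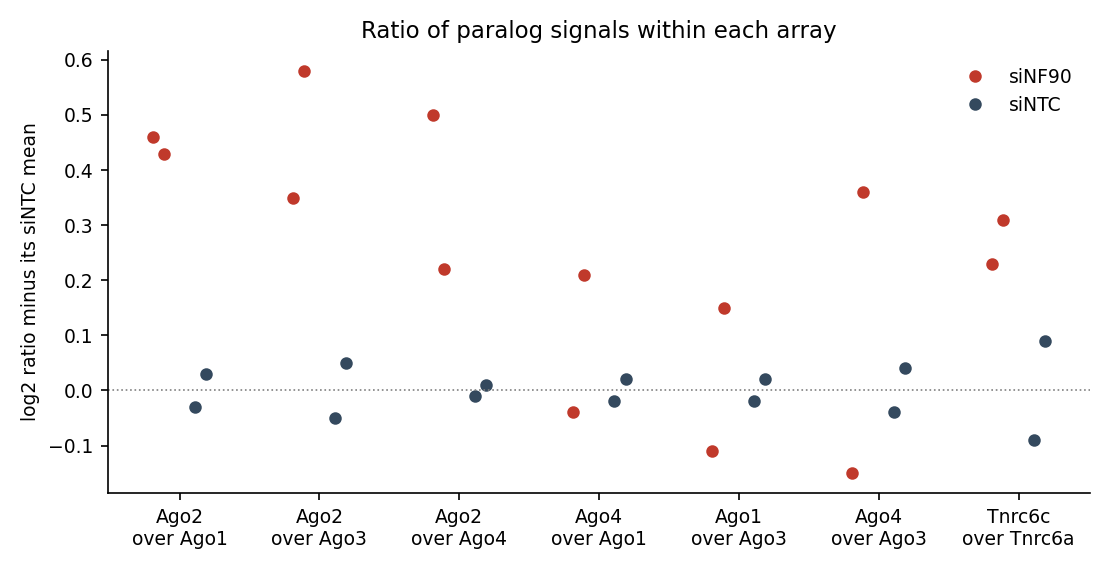
Log2 ratio of 2 paralogs on each array, minus the mean of that ratio over the siNTC arrays, with siNF90 (red) to the left of siNTC (dark blue) in each pair. The ratios of Ago2 to each other Argonaute lie higher on both siNF90 arrays, which the signals of the single genes already fix. The ratios among Ago1, Ago3 and Ago4 overlap.

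Ago3, Ago1 and Ago4 lie next to each other in this order on mouse chromosome 4 in the RefSeq annotation (GRCm38.p6), while Ago2 is on chromosome 15. The 3 protein-coding genes on either side were all measured. Ahead of Ago3 these are the collagen gene Col8a2 (-0.03 ± 0.14, log2 difference and SE), Adprhl2 (0.01 ± 0.28) and Tekt2, a tektin of cilia and flagella (0.15 ± 0.15). Beyond Ago4 they are Clspn, the replication checkpoint adaptor claspin (-0.05 ± 0.13), 5730409E04Rik (0.23 ± 0.25) and the proteasome subunit Psmb2 (-0.07 ± 0.12). In each of the 6 flanking genes the groups overlapped, as in Ago4. In Ago3 and Ago1 they were apart, with siNF90 lower, beside 39.8% of all genes apart in either direction. The flanking genes differed in level. Col8a2 (means 0.92 in siNF90 and 0.95 in siNTC) and 5730409E04Rik (1.37 and 1.14) lay below the median level of 1.84. Tekt2 lay near it (1.90 and 1.76), and the siNF90 arrays of Adprhl2 read 3.93 and 3.09. No gene of the 9 passed limma's test, and a difference between the Argonaute genes and their neighbours was not tested.

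**Figure D4:**
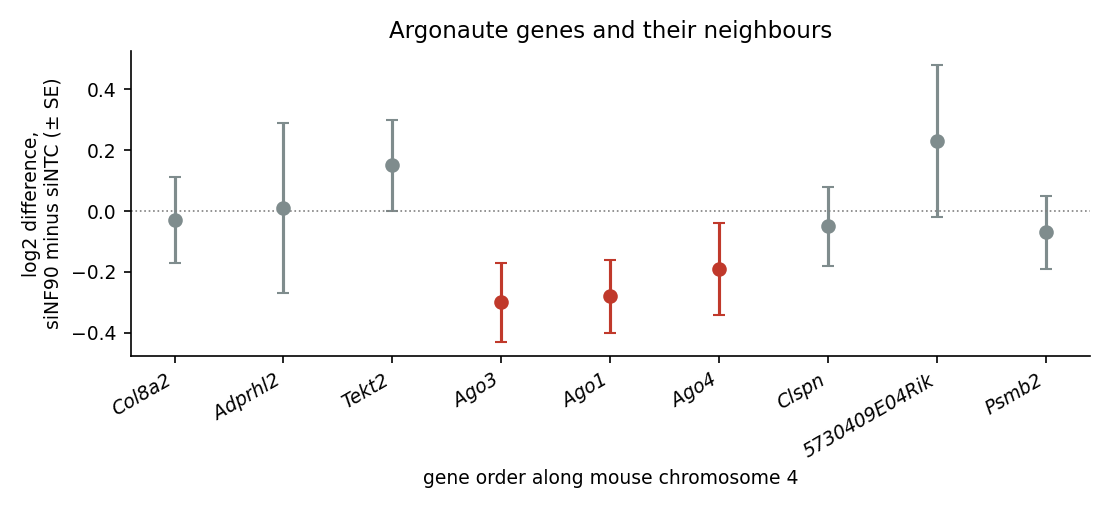
Log2 difference, siNF90 minus siNTC, with the SE from limma, of Ago3, Ago1 and Ago4 (red) and of the 3 protein-coding genes on either side (grey), in gene order along chromosome 4. The Argonaute genes lie at -0.30, -0.28 and -0.19 and the others between -0.07 and 0.23.

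The promoter windows of these neighbouring Argonaute genes are shown because their differences shared a direction, beside that of Tnrc6c, the member with the largest difference. None of these genes passed limma's test, the groups overlapped for Ago4, and 45.8% of all genes had a difference below 0. Any link between the windows and the differences was not tested. Each window holds 250 bases before and 50 after the annotated start (RefSeq, GRCm38.p6), written 5′ to 3′ on the gene's strand. Capitals mark matches, on either strand, to GGGCGG (the GC box), CCAAT (the CCAAT box), TATAAA (the TATA box), CACGTG (an E-box) or CCGGAAG (an ETS site). They are Ago3 at chr4:126429493-126429792 (minus), Ago1 at chr4:126468582-126468881 (minus, 1 of 2 overlapping windows listed), Ago4 at chr4:126533409-126533708 (minus) and Tnrc6c at chr11:117654039-117654338 (plus).
Ago3 promoter: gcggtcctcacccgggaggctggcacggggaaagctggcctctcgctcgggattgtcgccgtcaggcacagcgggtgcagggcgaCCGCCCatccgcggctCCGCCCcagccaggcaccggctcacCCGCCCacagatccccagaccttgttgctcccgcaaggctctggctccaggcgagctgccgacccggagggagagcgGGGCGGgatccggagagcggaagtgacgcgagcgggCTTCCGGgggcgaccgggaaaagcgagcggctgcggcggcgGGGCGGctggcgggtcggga
Ago1 promoter: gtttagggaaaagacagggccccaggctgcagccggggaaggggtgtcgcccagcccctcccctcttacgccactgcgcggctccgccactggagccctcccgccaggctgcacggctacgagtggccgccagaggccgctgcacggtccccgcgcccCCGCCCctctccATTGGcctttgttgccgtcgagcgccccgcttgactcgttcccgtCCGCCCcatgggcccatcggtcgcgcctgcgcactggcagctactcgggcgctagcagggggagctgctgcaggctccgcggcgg
Ago4 promoter: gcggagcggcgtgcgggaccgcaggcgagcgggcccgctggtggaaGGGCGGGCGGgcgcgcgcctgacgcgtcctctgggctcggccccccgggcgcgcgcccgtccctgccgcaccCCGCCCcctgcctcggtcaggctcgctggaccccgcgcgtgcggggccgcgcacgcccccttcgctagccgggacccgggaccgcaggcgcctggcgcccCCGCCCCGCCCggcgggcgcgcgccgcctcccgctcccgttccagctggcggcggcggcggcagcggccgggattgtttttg
Tnrc6c promoter: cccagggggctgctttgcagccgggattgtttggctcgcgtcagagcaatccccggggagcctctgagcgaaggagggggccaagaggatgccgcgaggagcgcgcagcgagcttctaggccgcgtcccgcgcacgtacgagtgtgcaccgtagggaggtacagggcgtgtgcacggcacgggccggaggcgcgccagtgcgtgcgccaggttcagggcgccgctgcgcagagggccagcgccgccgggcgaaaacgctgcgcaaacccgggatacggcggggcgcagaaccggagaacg
All 4 are rich in G and C: 74.7% of bases in Ago3, 73% in Ago1, 83.3% in Ago4 and 71.3% in Tnrc6c, against a median of 52.7% over 32851 promoter windows. The Argonaute windows hold 5 (Ago3), 2 (Ago1) and 5 (Ago4) GC boxes, some of them overlapping in Ago4, and that of Ago1 holds a CCAAT box and that of Ago3 an ETS site as well. The Tnrc6c window holds none of the 5 motifs. Over 12 windows of 9 of the 10 genes (Ago2 not among them) and Ago3, 8 hold a GC box (35.7% of all windows), 6 a CCAAT box (37.4%), 2 an ETS site (8.86%), 1 an E-box (7.15%) and 0 a TATA box (13.6%). Both overlapping windows of Ago1 are in these counts, with the same GC boxes and the same CCAAT box, and Tnrc6b also has more than a single window. The counts describe letters in a window.

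The largest difference of the 8 measured genes was in a TNRC6 scaffold. Tnrc6c read 5.77 and 5.67 on the siNF90 arrays, against 5.23 and 5.44 on the siNTC arrays. Both siNF90 values were higher, by 0.39 ± 0.13 or 1.31-fold (SE; limma unadjusted p = 0.0283, adjusted p = 0.44). With limma's trend option, in which the prior variance depends on signal level and which called 0.455% of genes, its adjusted p was 0.212. Its difference lay between 0.28 and 0.49 when each array was left out in turn.

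Tnrc6a, which encodes GW182, read 6.38 and 6.20 in siNF90 and 6.16 and 6.19 in siNTC. The second siNF90 array lay just above the siNTC arrays, and the difference of 0.12 ± 0.13 (limma adjusted p = 0.806) came to 0.03 without the first siNF90 array. The ratio of Tnrc6c to Tnrc6a was -0.61 and -0.53 in siNF90 and -0.93 and -0.75 in siNTC, a 1.21-fold shift toward Tnrc6c. Tnrc6b had no probe set of its own, since its symbol shares probe set 17313169 with Mir5113, a microRNA gene within its span. That probe set read 5.15 and 4.69 in siNF90 and 5.30 and 5.23 in siNTC, with a difference of -0.35 ± 0.20 (adjusted p = 0.704 over all probe sets). The siNF90 arrays were 0.46 apart there, more than the group means were.

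Partners of these proteins were taken from 7 lists by role, 78 genes in all, of which 74 were measured. No partner was called by limma over all genes (smallest adjusted p = 0.357), nor with the replicate number as a block (0.591) or with the trend option (0.0605). At an unadjusted p under 0.05, 6 were higher and 3 lower, beside 5.87% and 4.41% of all genes. As many had a difference above 0 as below it, 36 each, with a median of 0.00. The genes named are the 3 with the largest absolute difference in each list.

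Cofactors of the Microprocessor went both ways, 4 higher, 3 lower and 1 without a difference among 8. Adar, the RNA-editing enzyme that acts on double-stranded RNA, read 4.83 and 4.58 in siNF90 and 4.22 and 4.28 in siNTC (0.46 ± 0.14, log2 difference and SE). Ddx5, the helicase p68 that joins the Microprocessor, read 9.0 and 8.86 in siNF90 against 9.24 and 9.28 in siNTC (-0.33 ± 0.12), the smallest adjusted p of all 74 with the trend option. Srsf3, a splicing factor that recognises a motif beside primary hairpins, differed by -0.32 ± 0.12. The groups were apart in these 3 genes and in 5 of the 8, beside 39.8% of all genes and 53.7% of those with a mean level of at least 4.

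All 3 export genes had a difference below 0. Xpo1, the general exporter of proteins and some RNAs, differed by -0.24 ± 0.13, Rcc1, which loads Ran with GTP, by -0.10 ± 0.25, and Ran by -0.05 ± 0.21. The groups overlapped for Rcc1 and Ran. Among 7 partners in dicing and Argonaute loading, Hsp90aa1, a chaperone that opens the Argonautes, read 4.06 and 4.19 in siNF90 and 4.39 and 4.47 in siNTC (-0.31 ± 0.12). The co-chaperone Ptges3 differed by 0.30 ± 0.21 with overlapping groups, and the Dicer partner Prkra by -0.19 ± 0.13. Of 11 genes of precursor and microRNA turnover, 6 were higher and 5 lower. Dis3l2, a nuclease of uridylated precursors, differed by -0.31 ± 0.13, the nuclease Xrn2 by 0.21 ± 0.12 and the uridylyltransferase Tut4 by -0.21 ± 0.12.

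The largest differences among the partners lay in the silencing complexes around the Argonautes, where 9 of 17 were higher and 8 lower. Eif4e2, the cap-binding protein 4EHP that represses translation, read 4.80 and 4.69 in siNF90 and 4.15 and 4.17 in siNTC (0.59 ± 0.12; limma unadjusted p = 0.00284, adjusted p = 0.357). Mov10, a helicase bound to Argonautes, read 2.32 and 1.78 against 1.54 and 1.40 in siNTC (0.58 ± 0.20), values close to the median level of all genes. Lsm14b, an RNA-binding protein of the family found in P-bodies, read 5.24 and 5.04 against 4.67 and 4.54 in siNTC (0.54 ± 0.13). In all 3, which were named for the size of their difference, both siNF90 arrays were the higher ones. Over the whole list the groups were apart in 7 of 17, 5 higher and 2 lower in siNF90, beside 39.8% of all genes.

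Downstream of the scaffolds, 9 of 15 deadenylation genes had a difference below 0 and 6 above it. The largest were in Cnot9 (-0.26 ± 0.12), a subunit of CCR4-NOT, and the deadenylase Cnot8 (-0.22 ± 0.12). The ubiquitin ligase Cnot4 (-0.19 ± 0.13) came next, level to 2 decimals with the deadenylase Cnot6l (-0.19 ± 0.13) and, in the other direction, with Btg2 (0.19 ± 0.15), which binds CCR4-NOT. Groups were apart in 5 of the 15, each time with siNF90 lower. Over all genes, 17.9% were apart with siNF90 lower and 39.8% in either direction. All of the 15 but Tob2 had a mean level of at least 4. Of the 6637 genes at that level, 53.7% were apart in either direction, and 1679 genes were apart with siNF90 lower. Of 13 genes of decapping and decay, 8 were higher, 4 lower and 1 without a difference. The largest were in Lsm1 (0.46 ± 0.18), Lsm7 (0.42 ± 0.13) and Lsm4 (0.27 ± 0.12), subunits of the ring that binds shortened messenger RNAs. The other subunits of that ring differed by 0.12 (Lsm3), 0.01 (Lsm6), -0.06 (Lsm5) and -0.19 (Lsm2, with both siNF90 arrays the lower ones).

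**Figure D5:**
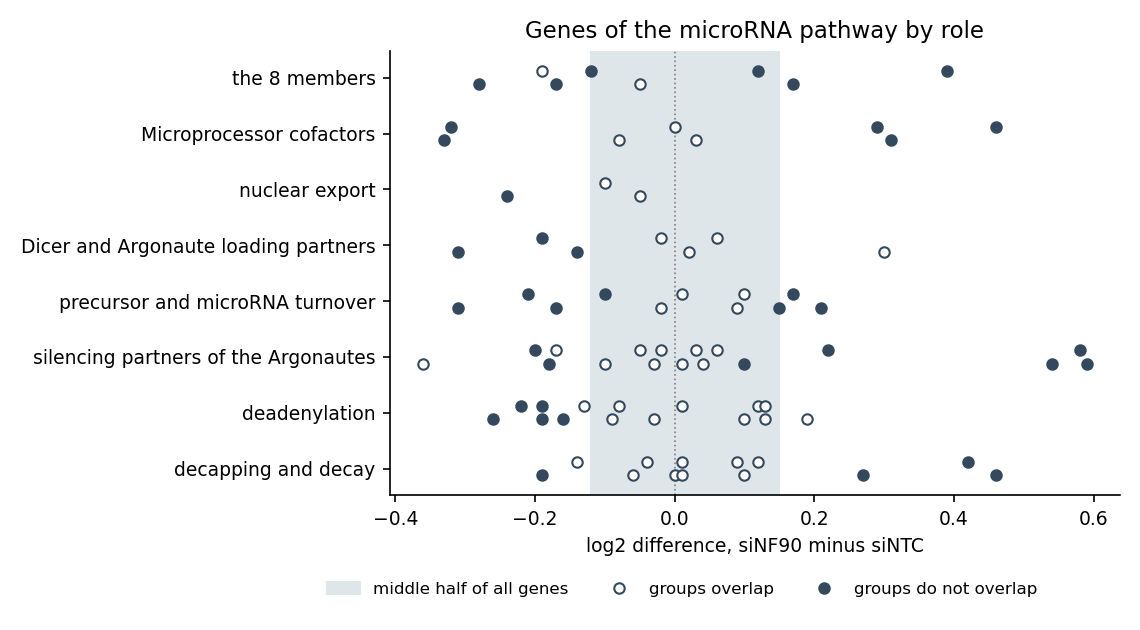
Log2 difference, siNF90 minus siNTC, of the 8 measured genes and of 74 partners in 7 lists by role, 1 point a gene, with filled points where the arrays of the groups do not overlap. The shaded band runs from the 25th to the 75th percentile of all genes (-0.12 to 0.15). Most lists spread to both sides of 0, and the points beyond 0.5 are Eif4e2, Mov10 and Lsm14b.

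Gaps between the 2 arrays of a group can be set beside the median absolute difference of the 8 genes, 0.17. The gap between the siNF90 arrays ran from 0.03 (Xpo5 and Ago2) to 0.31 (Ago4), with a median of 0.10, and that between the siNTC arrays from 0.01 (Dicer1) to 0.21 (Tnrc6c), with a median of 0.07. Over all genes, many of them at lower levels than the 8, the median gap was 0.15 in both groups. Genes of like level were not compared. Drosha, Ago4 and Tnrc6a were the genes whose siNF90 arrays stood farther apart than the group means.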

How the data were processed

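RNA was profiled on 4 arrays, 2 per group. The authors deposited 1 table of log2 values for 41345 probe sets, and the submitters' processing notes name Transcriptome Analysis Console. How it corrected, normalized and summarized the probes is not given in the sources used here. The log base is unstated, and base 2 was taken because 5 to 10 values per array exceed the natural log of a scanner's highest value. Detection could not be judged, and precision is limited by the number of arrays.

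Gene names came from the platform's annotation (23521 probe sets with 1 symbol, 1814 with several, 16010 with none). A gene was represented by its probe set with the highest mean. limma 3.58.1 in R 4.3.3 (lmFit, then eBayes with no trend) was fitted to all 22180 genes, and its two-sided p-values were adjusted by Benjamini-Hochberg over all of them, with a threshold of 0.05. The scripts were tested on simulated data. The genes and lists were chosen with earlier results of these data known. The text names the 10 genes, Ago3 and, per list, the 3 partners with the largest difference where none passed; the paralog pairs and chromosomal neighbours were chosen after values were seen. Protein features were not analysed here. Same-numbered arrays did not deviate together (r = -0.02 across genes), and the labels tie no number to a shared culture. Alternatives were a replicate block, a trend or robust prior, quantile normalization, median centring, a level filter, averaging probe sets per gene, testing each probe set, and leaving out each array.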

Additional observations from a re-analysis of the deposited data

Results flagged for a closer look

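Among 15 probe sets that carry several symbols including one of the pathway, and so stood outside the comparison, 1 read higher on both siNF90 arrays than on both siNTC arrays, beside 21.9% of all genes. The number that read lower on both is not given here. The shared probe sets of Dgcr8 and Tnrc6b described above read lower on both siNF90 arrays. Probe set 17527590, with the symbols Clk3 and Edc3, averaged 4.55 in siNF90 (4.45 and 4.65) and 4.07 in siNTC (4.11 and 4.03), a difference of 0.48 ± 0.14 (SE; limma adjusted p = 0.575 over all probe sets). The signal cannot be assigned to either gene. Edc3, an enhancer of decapping, had a second probe set of its own, which read 2.54 and 2.83 in siNF90 and 2.86 and 2.51 in siNTC.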

How the results depend on the processing

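Under the 12 alternatives no measured gene of the 10 passed the threshold (smallest adjusted p = 0.212, Tnrc6c with a trend), and Dicer1, Xpo5, Ago1, Ago2, Ago4, Tnrc6a and Tnrc6c kept their direction under all of them. Drosha turned to 0.09 without the second siNF90 array and was -0.19 without the first. The median difference of the 8 genes ranged from -0.09 to -0.01 when arrays were left out in turn, where the group left with 1 array is assumed to vary like the other. With a trend in the prior, 52 genes rose and 49 fell over all genes, against 0 and 0 without it and under the other alternatives. With the replicate number as a block, the count of calls stayed at 0, the median difference of the 8 genes was -0.08 and Tnrc6c had an adjusted p of 0.596; it changed no call.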
